A study of Mus musculus with 11 samples.

Results

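The mitochondrial ribosomal proteins are the 77 genes of the 36788 in the liver table whose symbol is Mrpl or Mrps followed by a digit, 48 with an Mrpl name and 29 with an Mrps name, leaving out 5 pseudogene names. They were measured in livers of ovariectomized (OVX) female mice, labelled as wild-type C57BL/6 and over 12 weeks old, that were kept on a high-fat diet and received either FSH (follicle-stimulating hormone, a pituitary gonadotropin, by daily injection; n = 5) or saline (n = 6). Ovariectomy and the diet were shared by both groups, so neither an intact nor a chow-fed liver enters the comparison. The study's methods state a mixed genetic background for all of its mice, which differs from the label. The comparison asks which liver transcripts differ when FSH is given without ovaries. Levels are in CPM, the reads of a gene scaled to a total of 1000000 reads on genes in each library.

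Mitochondria carry their own ribosomes, which translate the few mRNAs encoded by mitochondrial DNA into core subunits of the respiratory chain and ATP synthase. The ribosomal RNAs of these ribosomes come from mitochondrial DNA, whereas all of their proteins are encoded in the nucleus, made in the cytosol and imported. A large subunit forms peptide bonds and a small subunit reads the mRNA. Some of the proteins have bacterial counterparts and others are found in mitochondria only. Hepatocytes are rich in mitochondria, and genes for this machinery are expressed in essentially every cell.

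All 77 genes were expressed. Their mean levels ran from 12.7 to 191.9 CPM with a median of 34.2, which corresponded to 115 to 3836 reads per gene and library, and every member passed the minimum of a mean of 0.5 CPM. Per kilobase of transcript, Mrps21 of the small subunit was the most abundant with a mean over all livers of 150.4 CPM per kb. Mrpl12, the stalk protein, followed with 145.9 CPM per kb and Mrpl52 of the central protuberance with 144.2 CPM per kb. The lowest levels per length were those of Mrpl19 with 2.86 CPM per kb, Mrpl47 with 3.76 CPM per kb and Mrpl3 with 4.51 CPM per kb. These values rest on 1 annotated transcript per gene, and a long annotated end lowers them. The library totals were 11410596 to 19909327 reads in the FSH group and 10801891 to 16077442 reads in the saline group.

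After FSH, 4 members were higher and none was lower. These were the small-subunit protein gene Mrps9 and the large-subunit genes Mrpl15, Mrpl47 and Mrpl48, with fold changes between 1.25 and 1.37. The 4 members with an adjusted p under 0.05 (limma, Benjamini-Hochberg over the 12733 genes tested) made up 5.19% of the 77. Of all genes tested, 6.19% were called higher and 4.41% lower, so in this fit the share of members called was not above the background. At an unadjusted p under 0.05, 15 members (19.5%) and 25.1% of all genes passed. The study's methods also ask for a log2 fold change beyond 1 in either direction, and no member met both thresholds, against 1.83% of all genes. The log2 fold change of every member was under 0.5 in size, and for 59 members it was under 0.2.

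Mrps9 encodes the counterpart of bacterial S9, a small-subunit protein close to the site where tRNA reads the mRNA. In the FSH group its level was 31.9, 30.2, 28.7, 30.9 and 28.6 CPM in replicates 1, 2, 3, 4 and 6. In the saline group it ran from 19.6 to 24.3 CPM with a median of 21.7 CPM. Every FSH liver was above every saline liver. The means were 30.05 ± 1.44 (SD, n = 5) and 21.8 ± 2.05 CPM (SD, n = 6), a log2 fold change of 0.46 ± 0.09 (SE) with an adjusted p of 0.00365 (limma). The exact permutation test over the livers (two-sided) gave p = 0.00216, the smallest that 5 against 6 can give. Mrps9 was called under all 27 alternative settings.

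Mrpl15 encodes the counterpart of bacterial L15 in the large subunit. Its level was 85.7, 82.2, 104.7, 92.0 and 84.3 CPM in the FSH livers and ran from 58.8 to 73.1 CPM, median 65.9 CPM, in the saline livers. Here too the groups did not overlap, and FSH replicate 3 stood above the other FSH livers. The log2 fold change was 0.44 ± 0.09 (SE), adjusted p = 0.00571 (limma), with an exact permutation p of 0.00216, and Mrpl15 was likewise called under all 27 alternatives.

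Mrpl47 encodes the counterpart of bacterial L29, which sits beside the exit of the tunnel through which the new protein leaves the ribosome. Levels of 14.2, 13.9, 16.5, 14.8 and 13.5 CPM in the FSH livers stood against 9.55 to 12.7 CPM, median 11.04 CPM, in the saline livers. The groups did not overlap. The log2 fold change was 0.38 ± 0.10 (SE), adjusted p = 0.0191 (limma), exact permutation p = 0.00433. Without FSH replicate 3, in which the gene was highest, the adjusted p was 0.0579.

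Mrpl48 belongs to the central protuberance of the large subunit and has no bacterial counterpart. It was measured at 48.5, 47.1, 47.7, 44.2 and 44.3 CPM in the FSH livers and at 32.4 to 46.6 CPM, median 35.8 CPM, in the saline livers. Saline replicate 1 lay within the FSH range, so the groups overlapped, whereas the other saline livers were below every FSH liver. The log2 fold change was 0.32 ± 0.09 (SE), adjusted p = 0.0380 (limma), exact permutation p = 0.00866. The call was lost when any library other than FSH replicate 6 or saline replicate 1 was left out, with adjusted p up to 0.102. It was also lost with TMM scaling and with edgeR or DESeq2 on the recovered reads.

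**Figure D1:**
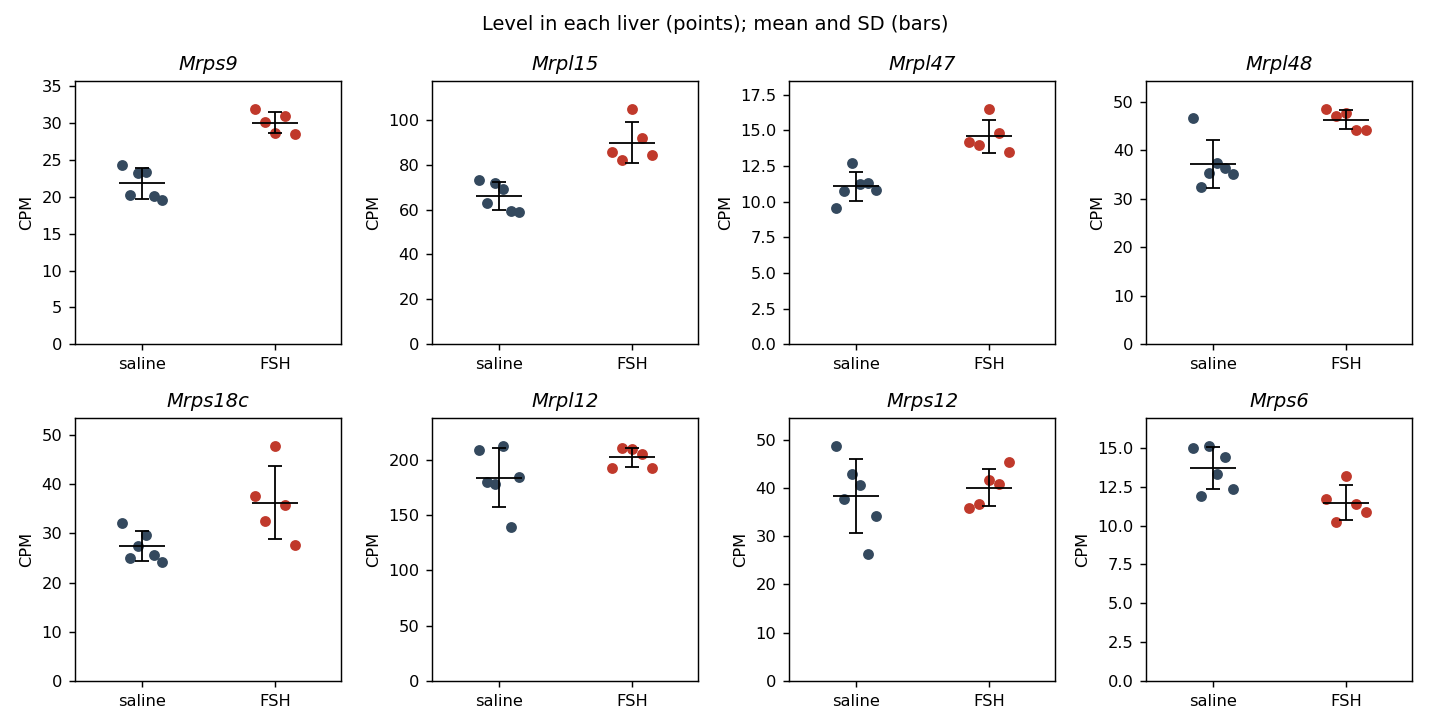
CPM (vertical axis, from 0) of 8 members in each liver, saline (n = 6) and FSH (n = 5). Points are livers and bars are the mean and SD. For Mrps9, Mrpl15 and Mrpl47 the groups are apart, for Mrpl48 saline replicate 1 (46.6 CPM) lies among the FSH livers, and for the lower row (Mrps18c, Mrpl12, Mrps12, Mrps6) the groups overlap.

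Across all genes tested, 3.95% had FSH livers all above saline livers and 2.72% all below. Among the members, Mrps9, Mrpl15 and Mrpl47 were of the first kind and none was of the second. By GENCODE M21 on mm10, Mrps9 spans chr1:42851233-42905683 (plus strand) and overlaps Gm23126 on the other strand. Mrpl15 at chr1:4773206-4785739 (minus strand) overlaps Gm37144 on its own strand. Mrpl47 at chr3:32725397-32737605 (minus strand) overlaps Actl6a and Ndufb5 on the other strand, and Mrpl48 at chr7:100545751-100608301 (minus strand) overlaps Rab6a, Cox20b and Gm44648 on the other strand. Whether the counting used strand is not stated, so reads of such neighbours cannot be told apart from those of the members.

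The largest changes among members not called were those of Mrps18c, Mrpl14 and Mrpl42. Mrps18c, which encodes the counterpart of bacterial S18 in the small subunit, was at 37.6, 32.5, 47.8, 35.7 and 27.7 CPM in the FSH livers. In the saline livers it was at 24.3 to 32.1 CPM, median 26.6 CPM (log2 fold change 0.38 ± 0.13 (SE), adjusted p = 0.0649, limma). FSH replicate 3 was far above the rest and FSH replicate 6 lay within the saline range. Mrpl14, a large-subunit protein at the interface with the small subunit, showed a log2 fold change of 0.31 ± 0.12 (SE) with an adjusted p of 0.121. Mrpl42, a mitochondria-specific large-subunit protein, had 0.29 ± 0.09 (SE) with an adjusted p of 0.0598. The value furthest below 0 was that of Mrps6, the counterpart of bacterial S6, with 11.7, 10.3, 13.2, 11.4 and 10.9 CPM in the FSH livers against 11.9 to 15.1 CPM, median 13.9 CPM, in the saline livers. Its log2 fold change was -0.25 ± 0.10 (SE) with an adjusted p of 0.139. Mrps6 shares its locus with Slc5a3 on the same strand, so its reads are uncertain.

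**Figure D2:**
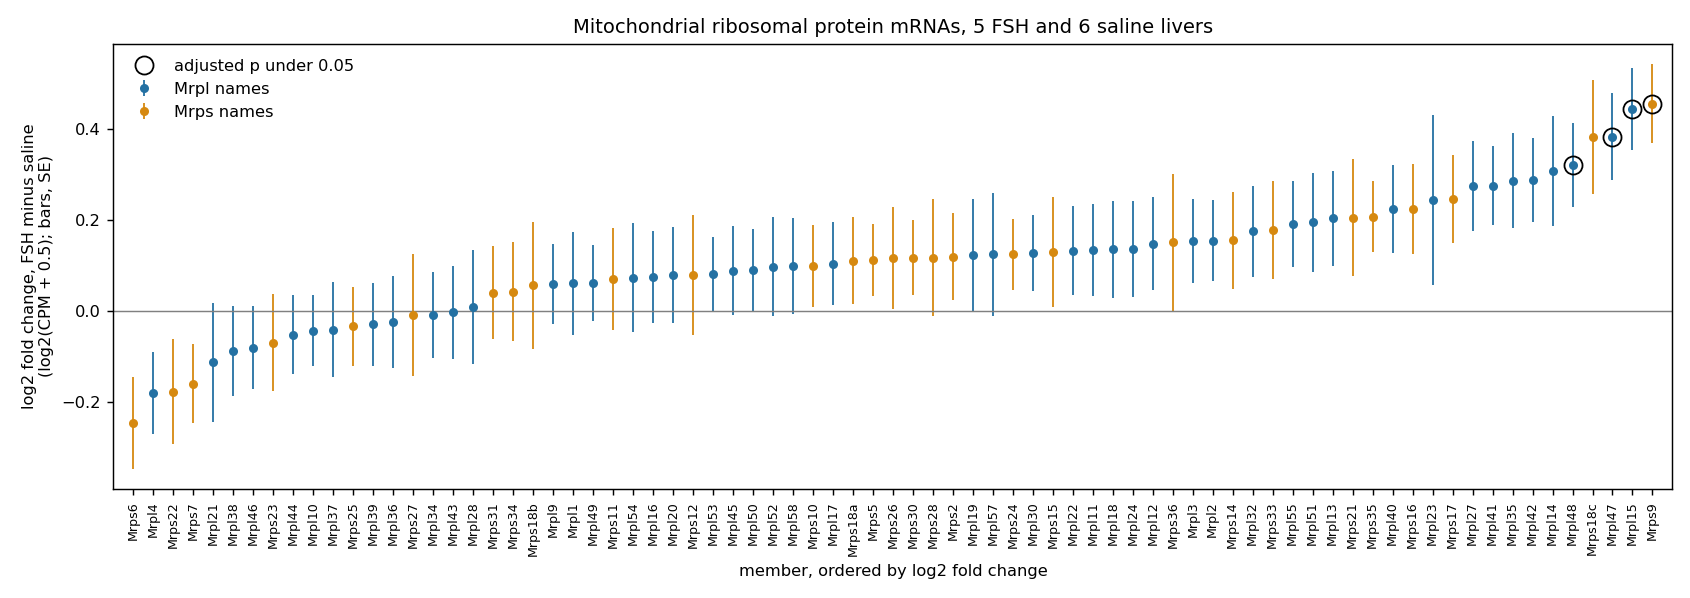
log2 fold change (FSH minus saline, on log2(CPM + 0.5)) of the 77 members in rising order, with SE bars; colours separate Mrpl and Mrps names and open circles mark the 4 members with an adjusted p under 0.05. The values run from -0.25 (Mrps6) to 0.46 (Mrps9), and 60 of them are above 0.

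Most members had a log2 fold change above 0 that did not pass the test. Their median was 0.12 (a median rise of 8.49% in CPM on that scale), beside 0.02 over all genes tested, and 60 of the 77 were above 0, beside 54.0% of all genes. With TMM scaling the medians were 0.09 for the members and -0.00 for all genes. With a correction for GC content and length they were 0.07 and 0.02, with 57 members above 0, and without saline replicate 6 they were 0.08 and 0.03. Mrpl names had 37 of 48 values above 0 and a median of 0.11. Mrps names had 23 of 29 above 0 and a median of 0.12. The median member of a liver varied within groups with an SD of 0.0997 on the log2 scale, close to the median change. These counts describe the list, and the members of a liver share its library, so they are not independent.

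By place in the ribosome, large-subunit proteins with a bacterial counterpart had 24 of 29 values above 0, a median of 0.14 and 2 members called (Mrpl15 and Mrpl47). Mrpl33 belongs to the same class and was not analysed here. The 21 mitochondria-specific large-subunit proteins had 15 values above 0, a median of 0.09 and 1 member called (Mrpl48). In the small subunit, 14 of 16 proteins with a bacterial counterpart were above 0 with a median of 0.12 and 1 call (Mrps9). The 10 mitochondria-specific small-subunit proteins had 6 values above 0, a median of 0.04 and no call. Around the exit tunnel all 6 members were above 0 (median 0.13, Mrpl47 called), and in the central protuberance 6 of 8 were (median 0.16, Mrpl48 called). Differences between these classes were not tested.

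The stalk draws translation factors to the ribosome and is built on Mrpl10 and Mrpl11, with Mrpl12 as its mobile part. None of the stalk genes was called. Mrpl12, which also binds the mitochondrial RNA polymerase, was at 192.7, 210.3, 209.9, 204.7 and 192.0 CPM in the FSH livers and at 138.7 to 212.4 CPM, median 182.1 CPM, in the saline livers. All FSH livers lay inside the saline range. The log2 fold change was 0.15 for Mrpl12 (adjusted p = 0.400), -0.04 for Mrpl10 (adjusted p = 0.793) and 0.14 for Mrpl11 (adjusted p = 0.450, limma).

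Mrps12, a protein of the decoding centre, was at 35.9, 36.7, 41.6, 40.8 and 45.3 CPM after FSH and at 26.4 to 48.7 CPM, median 39.1 CPM, after saline, with the FSH livers inside the saline range (log2 fold change 0.08, adjusted p = 0.765). The paralogs of Mrps18c gave 0.11 (Mrps18a, which sits in the large subunit despite its name, adjusted p = 0.524) and 0.06 (Mrps18b, adjusted p = 0.847). Mrps30, another large-subunit protein with a small-subunit name, gave 0.12 (adjusted p = 0.416). Mrpl58, a peptidyl-tRNA hydrolase built into the large subunit, gave 0.10 (adjusted p = 0.616), and Mrpl3 gave 0.15 (adjusted p = 0.325). Mrps36, now known as a subunit of the 2-oxoglutarate dehydrogenase complex rather than of the ribosome, gave 0.15 (adjusted p = 0.592). For Mrps21 and Mrpl52, high per length, and Mrpl19, low per length, the values were 0.21, 0.10 and 0.12 (adjusted p = 0.351, 0.634 and 0.598).

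The level of the members varied between livers of the same group. Summed over the 77 genes, it was 3154, 3018, 3427, 3285 and 3204 CPM in FSH replicates 1, 2, 3, 4 and 6. The saline sums were 3274, 2698, 3152, 3054, 2932 and 2698 CPM in replicates 1 to 6. The group means were 3217 ± 152 (SD, n = 5) and 2968 ± 237 CPM (SD, n = 6). The groups overlapped: saline replicates 2 and 6 were lowest, FSH replicate 3 was highest, and saline replicates 1, 3 and 4 lay within the FSH range. Saline replicate 2 held the lowest value of 24 members and saline replicate 6 that of 21, whereas FSH replicate 3 held the highest value of 28. With the group means removed, pairs of members correlated with a median of 0.33 over the 11 livers, and 78.4% of the 2926 pairs were positive. Members of a liver share its library and its scaling.

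**Figure D3:**
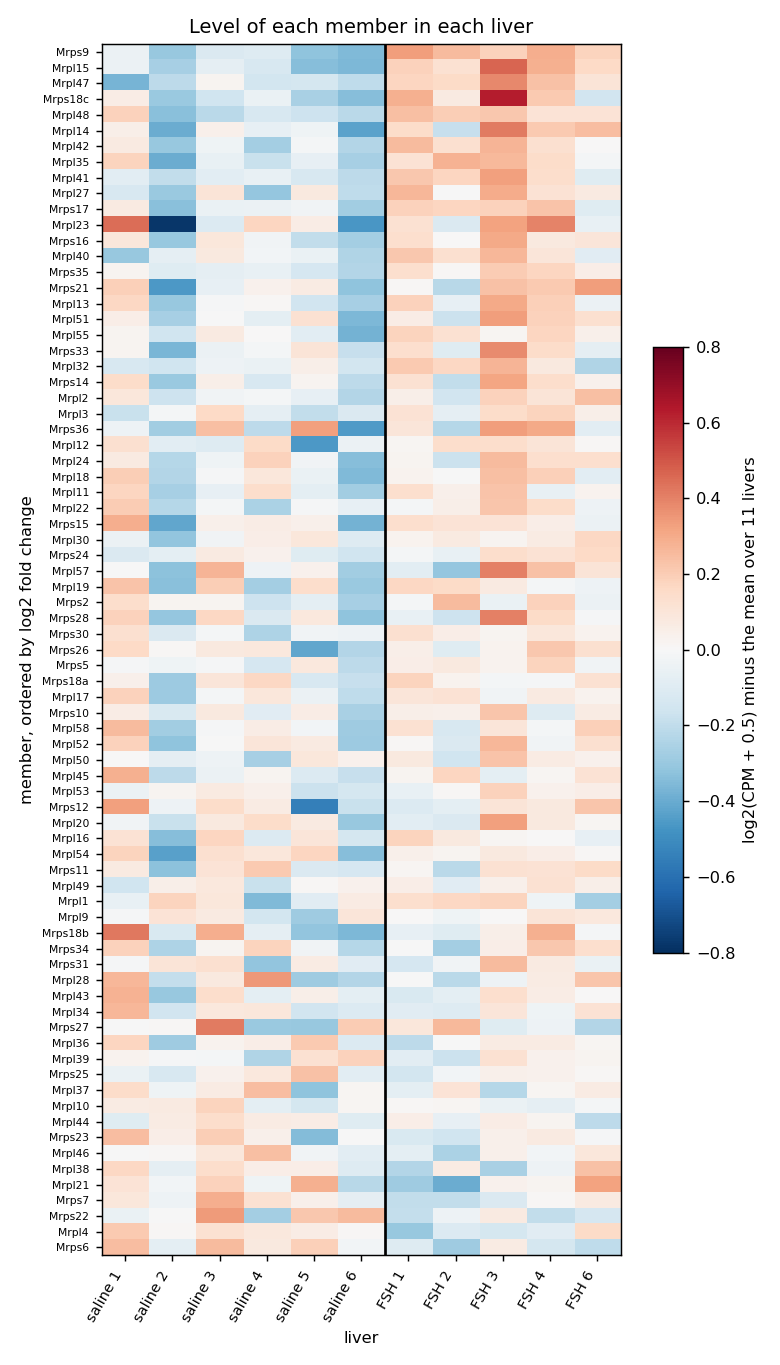
Each row is a member, ordered by log2 fold change from Mrps9 at the top to Mrps6 at the bottom, and each column a liver; colour is log2(CPM + 0.5) minus the member's mean over the 11 livers. The columns of saline replicates 2 and 6 are mostly blue (low) and that of FSH replicate 3 mostly red (high), while rows near the top are blue in most saline livers and red in most FSH livers.

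FSH replicate 2 and saline replicates 2 and 6 had the highest values of the second principal component of all genes (27.3, 24.0 and 15.1), which took 17.4% of the variance and did not separate the groups. These 3 livers also had the lowest sums of the members in their groups. Left out together, a choice made after seeing the data, they took the count of members called from 4 to 2 (Mrps9 and Mrpl15), while the share of all genes called higher went from 6.19% to 3.77%. The median log2 fold change of the members was then 0.07, beside 0.03 for all genes, and 53 members were above 0. Their part in the values of the other members was not tested further.

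**Figure D4:**
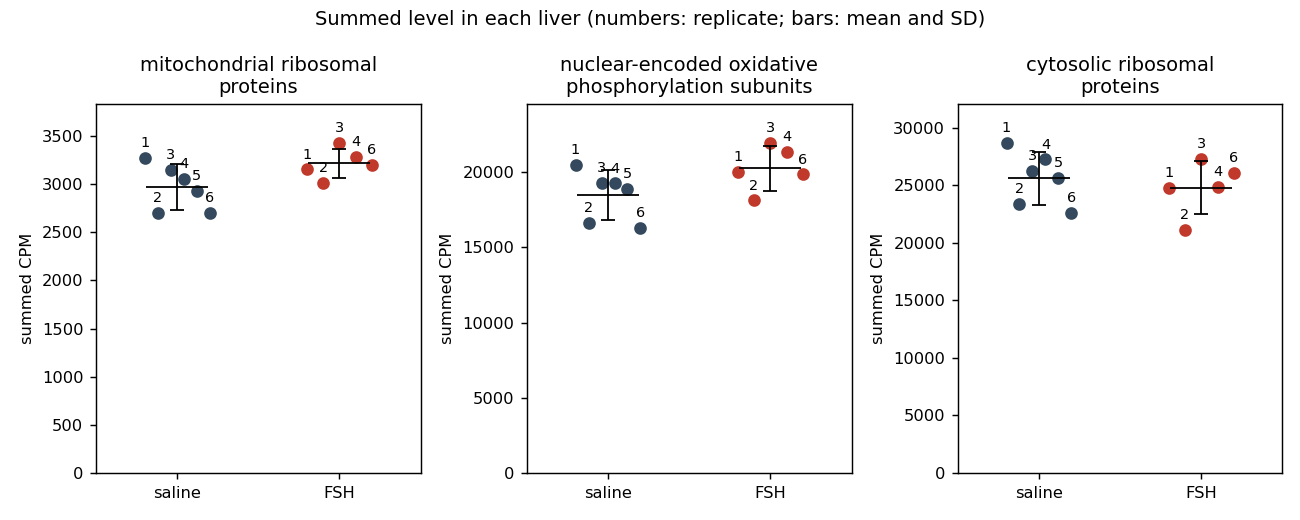
Summed CPM (vertical axes, from 0) per liver of the members, of nuclear-encoded oxidative phosphorylation subunits and of cytosolic ribosomal proteins; numbers beside points are replicates and bars are the mean and SD (saline n = 6, FSH n = 5). FSH replicate 2 and saline replicates 2 and 6 are the lowest of their groups in every panel, and the groups overlap in all.

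Nuclear-encoded subunits of oxidative phosphorylation were set beside the members. All of its complexes except complex II (succinate dehydrogenase) also hold subunits made by mitochondrial ribosomes. Of the 81 tested, 80 had a log2 fold change above 0 with a median of 0.13, and 4 were called, all higher (Sdhd, Ndufb8, Ndufc2 and Ndufs5). Sdhd, a membrane anchor of complex II, showed a log2 fold change of 0.40 (adjusted p = 0.00811) and complex I subunit Ndufs5 one of 0.91 (adjusted p = 0.0444). Ndufs5 was at 144.3, 124.7 and 112.4 CPM in FSH replicates 3, 4 and 6. In FSH replicates 1 and 2 it was at 51.7 and 45.4 CPM, within the saline range of 35.6 to 64.0 CPM. Of the 4 called subunits, Sdhd alone was called whichever single library was left out. The calls of the others were lost in 7 or 8 of the 11 such fits. Cytosolic ribosomal proteins, which translate all other mRNAs, had 30 of 86 values above 0 and a median of -0.03, with 1 call, the low-level Rpl37rt (log2 fold change 1.07, adjusted p = 0.00523). The members had a median close to that of the oxidative phosphorylation subunits. Differences between the lists were not tested.

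**Figure D5:**
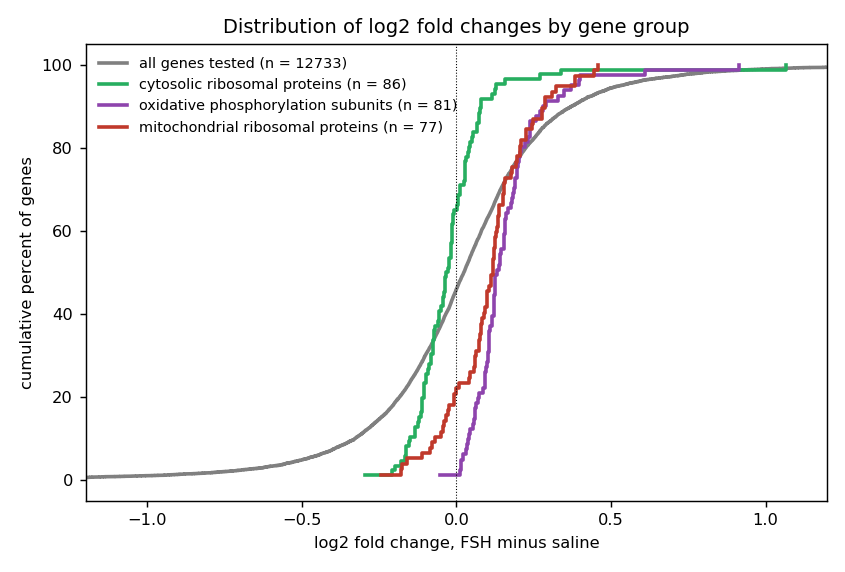
Cumulative percent of genes (vertical axis) at or below each log2 fold change (horizontal axis, shown from -1.2 to 1.2) for the 77 members, 81 oxidative phosphorylation subunits, 86 cytosolic ribosomal proteins and all 12733 genes tested. The curve of the members lies to the right of that of all genes over its lower part and is steeper, with a median of 0.12 against 0.02.

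The remaining genes of mitochondrial protein synthesis showed few calls, but the lists are small, and 10.6% of all genes tested were called in either direction. Of 5 ribosomal subunits with other names, 4 were above 0 and none was called (Chchd1 0.23, adjusted p = 0.116, and Gadd45gip1 -0.22, adjusted p = 0.337). Of 15 translation factors, 8 were above 0 and none was called, with the smallest p for the elongation factor Guf1 (0.41, adjusted p = 0.0669) and the ribosome recycling factor Gfm2 (-0.19, adjusted p = 0.154). Of 22 assembly factors, 17 were above 0 and none was called (Mpv17l2 0.41, adjusted p = 0.0615, and the rRNA methyltransferase Mrm3 0.39, adjusted p = 0.123). Among 20 genes that charge mitochondrial tRNAs, 10 were above 0, and Ears2, the glutamyl-tRNA synthetase, was lower (9.49 ± 0.80 against 13.4 ± 2.50 CPM, log2 fold change -0.46, adjusted p = 0.0355). That call was lost in 8 of the 11 fits without 1 library, those without FSH replicate 1, 2, 3 or 4 or saline replicate 1, 3, 4 or 6, with adjusted p up to 0.0840. The mRNAs and rRNAs of mitochondrial DNA were not analysed here.

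Among 9 genes of mitochondrial DNA transcription and replication, 2 were higher. Polg2, the accessory subunit of the mitochondrial DNA polymerase, was at 9.62 ± 1.17 after FSH and 6.42 ± 0.52 CPM after saline, with no overlap (log2 fold change 0.54, adjusted p = 0.00479). Tfam, which packages mitochondrial DNA and starts its transcription, was at 55.6 ± 5.48 and 45.2 ± 2.22 CPM (log2 fold change 0.29, adjusted p = 0.0382). The call of Tfam was lost in 8 fits without 1 library (FSH replicate 1, 2, 3 or 4 or saline replicate 2, 3, 4 or 5), with adjusted p up to 0.115, and that of Polg2 in none of the 11. Among 16 genes of import and folding, Timm17a, a subunit of the inner-membrane import channel, was higher (28.2 ± 3.02 against 20.49 ± 1.67 CPM, log2 fold change 0.45, adjusted p = 0.00742), a call lost without the 3 livers of highest second principal component (adjusted p = 0.0586).

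Clpx, the unfolding subunit of the matrix protease ClpXP, was lower in the same list (84.6 ± 11.7 against 316.7 ± 46.9 CPM, log2 fold change -1.90, adjusted p = 2.58e-07), with no overlap between groups. Of 9 transcriptional regulators of mitochondrial genes none was called. The smallest p was that of the nuclear receptor Esrra (0.33, adjusted p = 0.0530), followed by the coactivator Ppargc1a (-0.27, adjusted p = 0.337). Nrf1 and Gabpa, which encode factors known for activating many nuclear genes of mitochondrial proteins, had log2 fold changes of -0.02 (adjusted p = 0.930) and 0.23 (adjusted p = 0.341).

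RefSeq promoter windows on GRCm38.p6 were at hand for 68 of the 77 members, and the 250 bases before the start were searched on both strands. The core of the NRF1 motif, TGCGCA, was in 26.5% of these members, 6.66% of all 27025 genes with a window and 11.9% of the tested genes with one. The ETS motif CCGGAAG, bound by GABPA among others, was in 25.0%, 7.05% and 13.7%, and the YY1 motif AAGATGGC in 5.88%, 1.59% and 2.02%. The oxidative phosphorylation subunits held the NRF1 core in 19.4% and the ETS motif in 16.4%, and the cytosolic ribosomal proteins in 11.9% and 28.4%, so the ETS motif was not more frequent in the members than in the latter. The 18 members with the NRF1 core had a median log2 fold change of 0.10 and the 50 without it 0.12. For the ETS motif the medians were 0.11 with it (17 members) and 0.12 without it (51 members). A match is a description of the sequence and not a measured binding site.

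The 120 bases before the RefSeq start are shown 5′ to 3′ on the gene's strand for 2 called members, Mrps9 at chr1:42851113-42851232 (plus) and Mrpl47 at chr3:32736756-32736875 (minus), which hold none of the 3 motifs in their 250 bases. Beside them stand 2 of the 5 members with both the NRF1 core and the ETS motif, Mrpl22 at chr11:58171544-58171663 (plus) and Mrps18a at chr17:46110884-46111003 (plus). For Mrpl47 the RefSeq start lies inside the longer GENCODE gene given above, so the stretch shown precedes the RefSeq start only. The stretches of Mrpl22 and Mrps18a also run slightly past the GENCODE starts, at 58171661 and 46110986. Capitals mark the motifs. Mrpl22, a protein of the exit tunnel, showed a log2 fold change of 0.13 (adjusted p = 0.442), and neither it nor Mrps18a was called.
Mrps9: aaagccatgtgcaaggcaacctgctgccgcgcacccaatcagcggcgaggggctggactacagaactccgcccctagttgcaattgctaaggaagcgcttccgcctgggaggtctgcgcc
Mrpl47: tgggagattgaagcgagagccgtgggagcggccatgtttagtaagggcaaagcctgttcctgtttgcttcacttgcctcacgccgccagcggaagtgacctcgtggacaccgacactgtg
Mrpl22: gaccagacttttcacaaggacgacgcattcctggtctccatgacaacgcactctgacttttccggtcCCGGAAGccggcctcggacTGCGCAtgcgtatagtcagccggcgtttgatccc
Mrps18a: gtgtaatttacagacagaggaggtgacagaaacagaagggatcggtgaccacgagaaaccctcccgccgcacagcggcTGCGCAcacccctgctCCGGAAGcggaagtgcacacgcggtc

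Some members lay head to head with another gene. For 18 of the 77 (23.4%) a protein-coding gene on the other strand started upstream of the member, at most 1000 bp away, against 6.90% of the 21167 protein-coding genes of the table. Pairs whose starts overlap, such as Mrpl46 and Mrps11, were not counted in either share. The 21167 genes include genes too low to be tested, whereas all 77 members were tested. The share among tested genes was not computed, so the difference cannot be called particular to the members. Of the 17 head-to-head partners tested, 2 were called and both were lower, a share close to the 10.6% of all genes tested called in either direction. Apba3 starts 26 bp from Mrpl54 and showed a log2 fold change of -0.45 (adjusted p = 0.00884) beside 0.07 for Mrpl54. Eme2, a subunit of a structure-specific endonuclease, starts 29 bp from Mrps34 and had -0.53 (adjusted p = 0.0216) beside 0.04 for Mrps34. Sars2, which charges mitochondrial tRNA with serine, starts 172 bp from Mrps12 and had 0.12 (adjusted p = 0.668) beside 0.08. Transcripts of the members were short, with a median of 1316 nt against 2906 nt for all genes tested, and their fold changes followed GC content with a Spearman correlation of -0.32 and length with 0.03 over the 77 genes.

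The libraries carried the markers of liver. All 6 hepatocyte markers were detected, with sums of 90113 to 109291 CPM after FSH and 83731 to 110934 CPM after saline, and Hnf4a alone of them was called (lower, log2 fold change -0.44, adjusted p = 0.0369, a call lost in 7 of the 11 fits without 1 library). All 6 Kupffer cell and macrophage markers had values below 0 (1 called, Cd68, -0.78, adjusted p = 0.0118, a call lost without the 3 livers of highest second principal component at an adjusted p of 0.0566), with sums of 69.4 to 185.8 CPM after FSH and 114.2 to 222.9 CPM after saline. All 6 stellate cell and fibroblast markers were below 0 with no call (sums of 205.1 to 302.4 and 240.5 to 340.3 CPM). Of the 5 endothelial markers 4 were below 0, and Lyve1 was lower (-0.63, adjusted p = 0.0121, and 0.0978 without those 3 livers). The endothelial sums were 108.5 to 161.8 and 125.6 to 150.7 CPM. The 4 cholangiocyte markers went both ways, with 3 above 0 and 1 below it at -0.50. Krt7 alone of them was called (higher, 0.69, adjusted p = 0.00731), and their sums were 7.97 to 11.1 and 8.37 to 10.3 CPM. Erythroid, leukocyte, adipocyte and acinar lists had no call, and Lep and Prss2 were at 0 in every library. In whole tissue, fewer cells of a type and less RNA per cell cannot be told apart, and the part of these markers in the members' values was not tested.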

How the data were processed

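Total RNA of whole liver (per the labels, digested with papain) was turned by the authors into paired-end NEBNext Ultra libraries. The deposited table holds CPM values computed by the authors, scaled to 1000000 reads on the listed genes per library. It has no filter on level and no scaling between libraries. The submitters' processing notes name FastQC 0.11.2, Trim Galore 0.3.3, cutadapt, STAR, RSEM and the build mm10. The roles of STAR and RSEM, the annotation release, the step that gave the CPM values and the use of strand are not given in the sources used here. Every value was a whole multiple of what 1 read is worth (100% of values, within 0.05 of a whole read), so reads were recovered. The members and lists were chosen with earlier results of these data known.

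Of the 36788 identifiers, 35555 were given a symbol. Those whose mean reached 0.5 CPM entered a limma 3.58.1 fit (R 4.3.3) of log2(CPM + 0.5), FSH (n = 5) against saline (n = 6), using eBayes with trend and Benjamini-Hochberg adjustment, with groups and numbers taken from the sample titles. Fold changes are on that scale and understate changes of low genes. For single genes an exact permutation test over livers was added (numpy 2.4.6). The fit was tested on simulated data with independent genes and changes larger than that of any member. It therefore does not show how well changes of the members' size are found. Members named were those called, a set fixed by role, the 3 highest and 3 lowest per length, the 3 largest not called, and in other lists those called or the 2 with the smallest p. Mrps6 and the promoter examples other than called members, and the partners named, were chosen after their values were seen. The labels number the libraries without tying each to an animal, so p-values measure the spread between these libraries.

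The 27 alternatives were pseudocounts of 0.1 and 1, no filter, a filter of 2 CPM, TMM and median-of-ratios scaling, no trend, array weights, a replicate block, edgeR 4.0.16, DESeq2 1.42.0 and voom on the recovered reads, thinned reads, a correction for GC content and length, each library left out, and 2 added after seeing the data. Gene positions and transcript lengths came from GENCODE M21.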

Additional observations from a re-analysis of the deposited data

Results flagged for a closer look

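Among 42 groups of values examined (the named members and the summed level, each within FSH and within saline), 1 held a liver far from the others. In the saline group Mrpl48 was at 46.6 CPM in replicate 1, and at 32.4 to 37.4 CPM in the other saline livers, a gap of 0.643 of the group's range. Chance gives about 1 such flag in 20 groups. Without saline replicate 1 the log2 fold change of Mrpl48 was 0.39 with an adjusted p of 0.00747 (limma). The same liver had the highest summed level of the members in its group, 3274 CPM.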

How the results depend on the processing

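Of the members called, Mrps9 and Mrpl15 were called under all 27 alternatives, Mrpl47 under 25 (not without FSH replicate 3, nor without the 3 livers of highest second principal component) and Mrpl48 under 9. The count of members called was 4 in the reported analysis, 7 with array weights (8.67% of all genes called higher), 3 with edgeR (5.88%), 4 with DESeq2 (7.04%), and 2 without FSH replicate 2 and saline replicates 2 and 6 together (3.77%), an alternative chosen after seeing the data. Leaving out single libraries gave counts of 2 (without FSH replicate 3, 4.04% of all genes) to 8 (without FSH replicate 6, 8.16%), with 6 without saline replicate 1 (5.34%), and medians of the members' log2 fold changes of 0.08 to 0.15. With the correction for GC content and length, 4 members were higher (7.44% of all genes) and 1, Mrps6, was lower (5.21%), and the median of the members' log2 fold changes fell from 0.12 to 0.07. No member passed both thresholds under any alternative. Other alternatives left the count within 1.5 times of 4.

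The replicate numbers are shared by the groups (1, 2, 3, 4 and 6), but the deviations of same-numbered livers correlated with 0.07, 0.36, 0.02, 0.14 and -0.07, and 2 of the 5 FSH livers and 1 of the 5 saline livers correlated best with their own number. The numbers were therefore not taken as pairs. With the replicate block 5 members were called (4.96% of all genes called higher). They were Mrps9, Mrpl15, Mrpl47, Mrpl27 and Mrpl42, without Mrpl48. In the same mice without the block, a fit added after seeing the data, 3 were called (5.27% of all genes called higher), namely Mrps9, Mrpl15 and Mrpl47.

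Of the members followed singly, 3 changed sign (Mrps12, Mrps18b and Mrpl19, at 0.08, 0.06 and 0.12 in the reported analysis), and over all 77 the number above 0 ran from 53 to 63 across the alternatives. Mrps12 was at -0.022 with the replicate block and in the same mice without it, and ran from -0.022 (without saline replicate 5) to 0.15 when single libraries were left out. Mrps18b was at -0.00028 with the replicate block and in the same mice without it, at -0.017 without the 3 livers of highest second principal component, and ran from -0.0090 to 0.15 when single libraries were left out. Mrpl19 was at -0.028 without those 3 livers. None of these values had an adjusted p under 0.05, and the cause was not tested. The SE of a member's log2 fold change was 0.08 to 0.19, which limits what 5 against 6 livers can show.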

Other observations

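Of the 5 pseudogene names left out of the members, Mrpl23-ps1 had a sizeable level. It was at 29.99, 19.7, 38.2, 28.7 and 29.3 CPM in the FSH livers and at 20.2 to 29.97 CPM, median 25.99 CPM, in the saline livers (log2 fold change 0.20, adjusted p = 0.466, limma). Its parent Mrpl23, a protein of the exit tunnel, was at 26.3 ± 4.21 (SD, n = 5) and 22.8 ± 6.80 CPM (SD, n = 6), with the largest SE of any member (0.19). How the counting divided reads between the copies is not stated, so both levels are uncertain. The other pseudogenes, Mrps36-ps1, Mrps36-ps2, Mrps36-ps3 and Mrpl48-ps, had at most 6 reads in any library.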
